A study of Mus musculus with 5 samples.

Results

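Genes of the cell division cycle were followed across 5 Affymetrix Mouse Gene 1.0 ST arrays of mouse gut RNA. The set holds 47 named genes, 18 of S phase and 29 of mitosis, out of 19938 genes with a probe set of their own. A gene took the probe set that names it alone and has the highest mean over the 5 arrays. By that rule 46 of the 47 were measured, all 18 of S phase and 28 of mitosis. Ccnb1, the main B-type cyclin, had no probe set naming it alone and is not analysed here. Values are expression values on a log2 scale, on which a difference of 1 is a doubling, and levels are not set against each other between genes.

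The animals were healthy male ddY mice, an outbred stock, aged 5 weeks, and all received a pair of oral doses 0.5 hours apart. GA+GA mice had gum arabic, the vehicle, at both doses. LG21+GA mice had Lactobacillus gasseri OLL2716, a probiotic strain, and then gum arabic. The other groups ended with aspirin, an inhibitor of cyclooxygenases, given after gum arabic (GA+Asp), after teprenone, a mucosal protective drug (Tep+Asp), or after the same Lactobacillus strain (LG21+Asp). Tissue was taken 4 hours after the last dose. The study asked whether the strain weakens the effects of aspirin in the gut. There was 1 array per group, so no difference between a pair of groups could be set against the spread between animals. The labels do not say whether an array holds 1 mouse or a pool.

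Proliferating cells copy their DNA in S phase and divide it in mitosis. The MCM helicase opens DNA at licensed origins, ribonucleotide reductase supplies deoxynucleotides, and PCNA is the clamp that holds polymerases on the template. Cyclin A2 and cyclin B with CDK1 then drive entry into mitosis, where Aurora and Polo-like kinases, kinetochores and spindle proteins separate the chromosomes. S phase genes are typically controlled through E2F sites, and many mitotic genes through a CHR element (cell cycle genes homology region) with CCAAT boxes, read by the DREAM and MMB complexes and NF-Y. In the stomach and intestine, division is largely kept to the progenitors of the glands and crypts.

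The labelled tissue is gut, and marker lists of stomach and of other tissues were read on each array. Their levels do not give the share of a cell type. The 12 gastric epithelium genes had a median level between 13.23 and 13.24 on the 5 arrays, near the top of the deposited values, which end at 13.87. The 10 intestinal epithelium genes had a median level between 6.56 and 6.77, below the median of all probe sets. The 12 stem and progenitor genes had a median level between 8.75 and 8.87. Array medians over all probe sets lay between 6.94 and 6.98. The hepatocyte list of 12 genes differed most between arrays, with a median level of 9.97 in GA+GA, 9.31 in LG21+GA, 6.72 in GA+Asp, 7.31 in Tep+Asp and 8.26 in LG21+Asp. GA+GA was the highest array for 11 of the 12 (11.7% of all genes) and GA+Asp the lowest for 10 (18.0% of all genes). The summed log2 level ran from 90.1 in GA+Asp to 124.4 in GA+GA. The 9 suprabasal squamous genes had a median level of 9.38 in GA+GA, 9.42 in LG21+GA, 9.32 in GA+Asp, 10.11 in Tep+Asp and 7.89 in LG21+Asp. The 8 skeletal muscle genes had a median level of 7.15 in GA+Asp and between 6.97 and 6.98 on the other 4 arrays. GA+Asp was the highest array for 6 of them, against 21.7% of all genes. Acta1, skeletal actin, stood at 8.74 in GA+Asp and 7.94 in GA+GA. The 10 endothelium and fibroblast genes had a median level of 9.49 in Tep+Asp and between 9.21 and 9.30 on the others. Tep+Asp was the highest array for 9, against 14.3% of all genes. Markers of lymphocytes, erythroid cells and pancreatic acini had medians that differed from GA+GA by at most 0.12 in either direction. The part of these cell types in the results below was not tested. In bulk tissue, fewer dividing cells and less RNA per cell cannot be told apart.

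Promoters are shown for the 3 S phase and 3 mitotic genes with the widest range over the arrays among those with a promoter in the RefSeq table, to set the sequence classes beside the values that follow. Each runs from 250 bases before the start site to 50 after it, in the gene's own direction, from RefSeq on GRCm38.p6. Capitals mark matches, on either strand, to an E2F site (TTTCCCGC, TTTCGCGC, TTTGCCGC or TTTGGCGC, reverse complements GCGGGAAA, GCGCGAAA, GCGGCAAA and GCGCCAAA), to the CHR element TTTGAA (reverse TTCAAA) or to a CCAAT box (reverse ATTGG). Among the S phase genes, the Rrm2 window lies at chr12:24708004-24708303 on the plus strand, Pcna at chr2:132253131-132253430 on the minus strand and Mcm7 at chr5:138171834-138172133 on the minus strand.
Rrm2: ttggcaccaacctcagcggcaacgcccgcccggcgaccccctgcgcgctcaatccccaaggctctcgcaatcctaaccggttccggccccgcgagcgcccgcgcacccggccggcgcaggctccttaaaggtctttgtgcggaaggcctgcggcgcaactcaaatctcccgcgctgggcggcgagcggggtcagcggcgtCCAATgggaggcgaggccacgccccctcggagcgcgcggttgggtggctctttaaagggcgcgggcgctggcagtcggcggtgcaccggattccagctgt
Pcna: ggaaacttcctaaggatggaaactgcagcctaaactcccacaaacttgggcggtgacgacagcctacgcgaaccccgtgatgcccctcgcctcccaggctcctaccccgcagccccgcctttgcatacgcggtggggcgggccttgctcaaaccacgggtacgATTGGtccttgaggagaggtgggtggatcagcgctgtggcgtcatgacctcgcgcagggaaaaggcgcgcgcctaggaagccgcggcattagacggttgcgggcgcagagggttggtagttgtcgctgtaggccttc
Mcm7: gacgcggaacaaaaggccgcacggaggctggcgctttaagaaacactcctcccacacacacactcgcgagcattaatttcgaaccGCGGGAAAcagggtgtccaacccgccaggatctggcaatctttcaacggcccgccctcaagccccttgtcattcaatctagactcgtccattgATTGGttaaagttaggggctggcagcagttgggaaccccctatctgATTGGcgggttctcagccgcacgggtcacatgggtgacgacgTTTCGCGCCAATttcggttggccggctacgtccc
Among the mitotic genes, the Nusap1 window lies at chr2:119618048-119618347 on the plus strand, Prc1 at chr7:80294201-80294500 on the plus strand and Top2a at chr11:99024140-99024439 on the minus strand.
Nusap1: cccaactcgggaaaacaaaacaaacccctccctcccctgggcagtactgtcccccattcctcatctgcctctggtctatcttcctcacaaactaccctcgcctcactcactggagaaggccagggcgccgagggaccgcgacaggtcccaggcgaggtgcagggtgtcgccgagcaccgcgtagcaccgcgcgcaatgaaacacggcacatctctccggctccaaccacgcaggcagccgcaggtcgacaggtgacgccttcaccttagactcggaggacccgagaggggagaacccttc
Prc1: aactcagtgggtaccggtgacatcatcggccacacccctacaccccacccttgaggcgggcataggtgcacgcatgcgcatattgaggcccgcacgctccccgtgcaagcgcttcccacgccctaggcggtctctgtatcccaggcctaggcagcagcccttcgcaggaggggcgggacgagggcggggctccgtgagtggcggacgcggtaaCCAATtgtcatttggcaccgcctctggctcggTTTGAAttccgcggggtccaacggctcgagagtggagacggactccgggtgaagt
Top2a: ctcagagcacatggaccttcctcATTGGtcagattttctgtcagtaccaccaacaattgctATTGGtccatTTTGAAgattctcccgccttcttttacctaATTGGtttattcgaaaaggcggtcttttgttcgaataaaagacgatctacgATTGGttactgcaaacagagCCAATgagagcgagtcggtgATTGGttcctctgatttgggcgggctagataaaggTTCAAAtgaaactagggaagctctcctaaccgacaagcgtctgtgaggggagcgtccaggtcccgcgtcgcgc
Mcm7 holds 2 E2F matches, and the second shares its last base with a CCAAT box. Rrm2 and Pcna hold 1 CCAAT box each. Prc1 has a CCAAT box at position -37 from the start site and a CHR element at position -5. Top2a holds 6 CCAAT boxes and 2 CHR elements. Nusap1 has none of these letters in the window, which says nothing of the factors that bind there.

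A promoter was matched for 37 of the 46 measured genes, 15 of S phase and 22 of mitosis. The E2F site was in 6 of 15 S phase promoters (40.0%: Mcm3, Mcm5, Mcm6, Mcm7, Cdc6 and Cdt1) and in 1 of 22 mitotic ones (4.55%, Cdk1), against 2.32% of the 27025 promoters in the table. The CHR element was in 1 of 15 S phase promoters (6.67%, Mcm2) and in 16 of 22 mitotic ones (72.7%), against 18.1% of all promoters. CCAAT boxes were common to both classes, in 9 of 15 (60.0%) and 16 of 22 (72.7%), against 37.9% of all. A CHR element together with a CCAAT box was in 14 of 22 mitotic promoters (63.6%), 1 of 15 S phase ones (6.67%) and 7.12% of all. These shares are descriptions of letters, with no test. Without the first 100 bases of each window, the CHR element was in the same number of mitotic promoters, 16, against 11.3% of all promoters, and the E2F site in the same number of S phase ones, 6, against 1.68% of all.

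**Figure D1:**
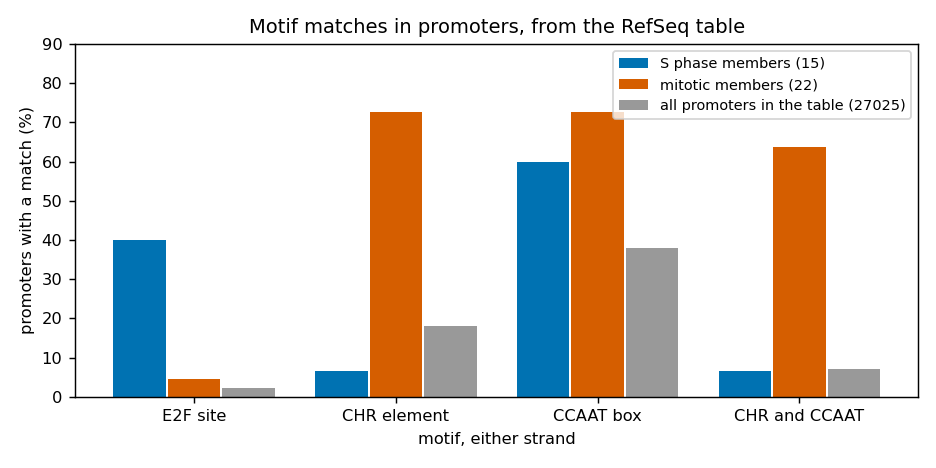
Share of promoters (%, vertical axis, from 0) with a match to each motif on either strand, for the 15 S phase promoters, the 22 mitotic promoters and all 27025 promoters of the RefSeq table. The E2F bar is highest for S phase genes (40.0%) and the CHR bar for mitotic genes (72.7%), while CCAAT boxes are frequent in both.

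CHR elements in mitotic promoters lay between positions -179 and 41 from the start site, with a median of -1. E2F matches in S phase promoters lay between -165 and 39, with a median of -106. Adjacent matches on opposite strands, as in Mcm5 and Mcm6, overlap and were counted separately. Within each class, genes with and without its motif were also compared, with no test. With aspirin alone against vehicle, the 16 mitotic genes with a CHR element had a median difference of -0.18 and the 6 without of -0.22. The 6 S phase genes with an E2F site had a median of -0.11 and the 9 without of -0.09. With the strain alone against vehicle the mitotic medians lay further apart, -0.07 with a CHR element and -0.15 without.

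**Figure D2:**
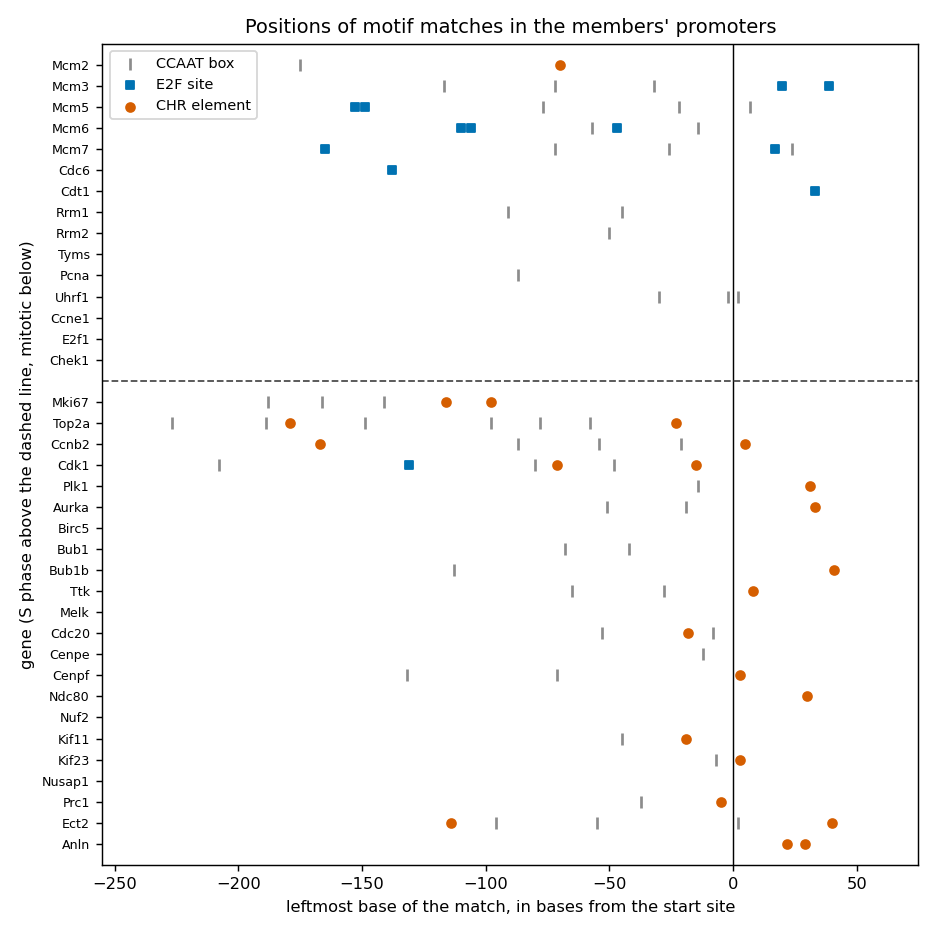
Position of each motif match in bases from the start site (horizontal axis, 0 is the start site, the first base of the match in the gene's direction) for the 37 genes with a promoter, S phase above the dashed line and mitotic below. CHR elements (circles) stand almost wholly among mitotic genes and near the start site, and E2F sites (squares) among S phase genes and Cdk1.

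Nearly all of these genes read highest in the vehicle control. GA+GA was strictly the highest of the 5 arrays for 16 of 18 S phase genes and 24 of 28 mitotic ones, whereas it was so for 11.7% of all genes. The exceptions were E2f1 and Tpx2, highest in Tep+Asp, Ccnb2, Foxm1 and Kif23, highest in LG21+GA, and Mcm2, which was tied. The margins were small. With a lead of at least 0.1 required the counts were 4 and 11, and the share of all genes at that margin was not counted. The lowest array differed between the classes. LG21+GA was strictly lowest for 9 of 18 S phase genes (13.8% of all genes) and 1 of 28 mitotic ones, Cenpe. All of these leads but that of Mcm4 were below 0.1. Mcm4 stood at 7.39 in LG21+GA against 7.51 in GA+Asp, whereas Pcna stood at 10.50 against 10.52 in Tep+Asp. GA+Asp was strictly lowest for 16 of 28 mitotic genes (18.0% of all genes) and 4 of 18 S phase ones. LG21+Asp was strictly lowest for 9 mitotic genes and 0 S phase ones (15.9% of all genes). Its leads were also below 0.1, except for Ect2. Exact ties between arrays in the deposited values touched 28 of the 46 genes (60.9%) and 77.7% of all genes, and tied arrays were counted neither as highest nor as lowest.

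**Figure D3:**
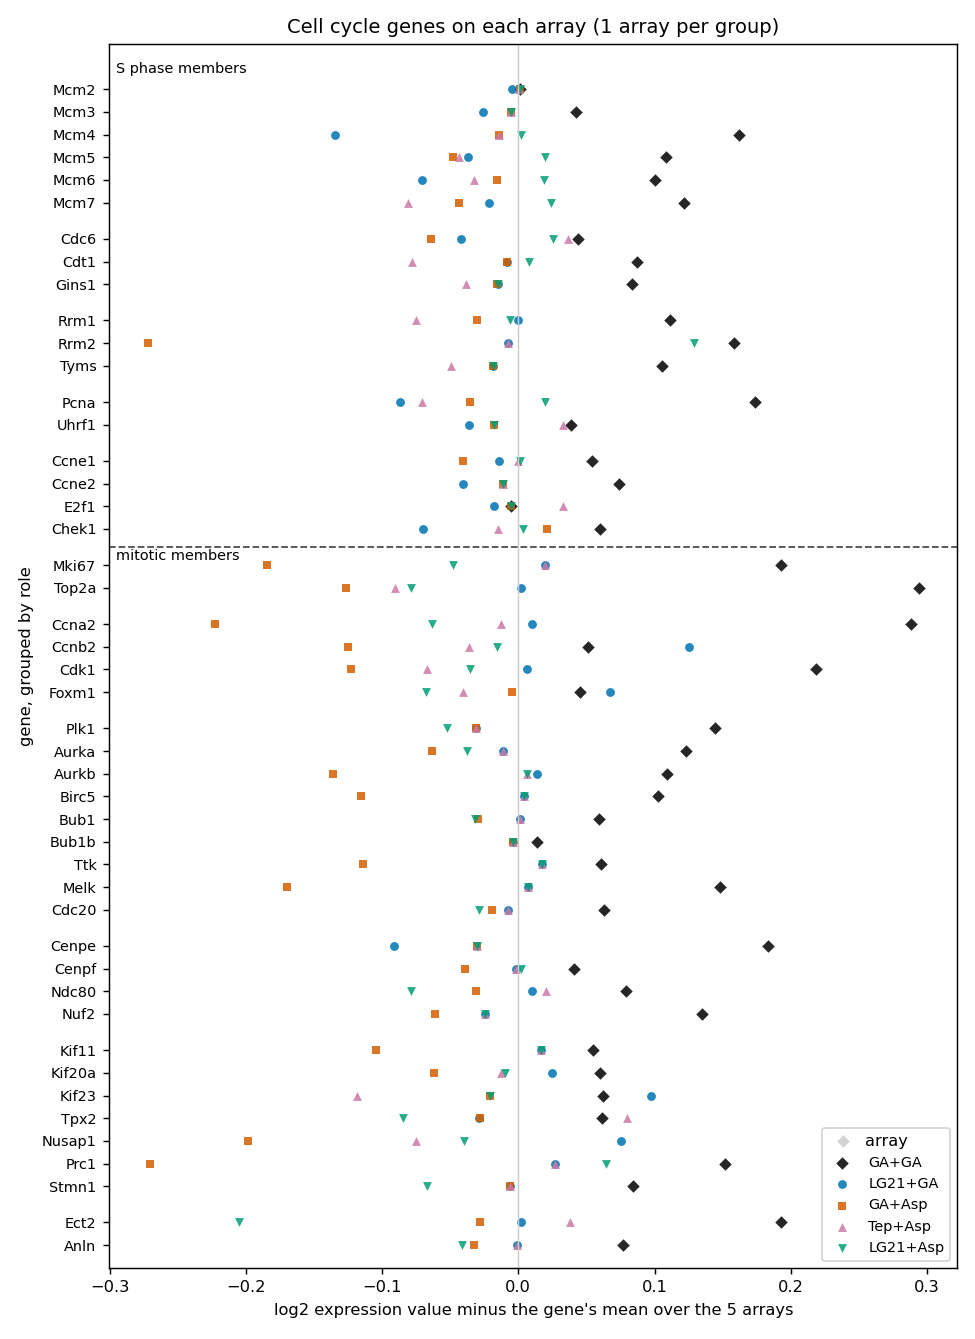
Log2 expression value of each of the 46 genes on each array minus that gene's mean over the 5 arrays (horizontal axis), 1 point per array, genes grouped by role and split into S phase and mitotic by the dashed line. Tied points overlap. The black diamonds of GA+GA stand to the right for most genes, and the orange squares of GA+Asp lie to the left mainly among mitotic genes.

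The MCM subunits, which form the replicative helicase, were lower than GA+GA by little. Mcm4 stood at 7.69 in GA+GA, 7.39 in LG21+GA, 7.51 in GA+Asp, 7.51 in Tep+Asp and 7.53 in LG21+Asp. It was 1.23-fold lower in LG21+GA than in GA+GA, and the 3 aspirin arrays lay between those arrays. Mcm7 stood at 8.22 in GA+GA, 8.08 in LG21+GA, 8.05 in GA+Asp, 8.02 in Tep+Asp and 8.12 in LG21+Asp. Every treated array was below the control, with LG21+Asp the nearest to it. Mcm2 was flat, at 8.33 on 4 arrays and 8.32 in LG21+GA. Over the 6 subunits the median difference from GA+GA was -0.14 in LG21+GA, -0.14 in GA+Asp, -0.14 in Tep+Asp and -0.08 in LG21+Asp.

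Genes that license and fire origins stood slightly below GA+GA on every other array. Cdt1, which loads the MCM complex, stood at 7.71 in GA+GA, 7.61 in LG21+GA, 7.61 in GA+Asp, 7.54 in Tep+Asp and 7.63 in LG21+Asp. Gins1, a subunit of the active helicase, stood at 6.79 in GA+GA, 6.69 in LG21+GA, 6.69 in GA+Asp, 6.67 in Tep+Asp and 6.69 in LG21+Asp. Tep+Asp was the lowest array for both, by 0.07 or less from the next.

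Ribonucleotide reductase gave the widest range in S phase. Rrm2, its regulated small subunit, stood at 7.65 in GA+GA, 7.49 in LG21+GA, 7.22 in GA+Asp, 7.49 in Tep+Asp and 7.62 in LG21+Asp. It was 1.35-fold lower in GA+Asp than in GA+GA, and with the Lactobacillus before aspirin it was 0.03 below the control. Rrm1, the large subunit, stood at 8.78 in GA+GA, 8.67 in LG21+GA, 8.64 in GA+Asp, 8.60 in Tep+Asp and 8.67 in LG21+Asp. The subunits thus had different lowest arrays, GA+Asp for Rrm2 and Tep+Asp for Rrm1.

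Pcna, the sliding clamp, stood at 10.76 in GA+GA, 10.50 in LG21+GA, 10.55 in GA+Asp, 10.52 in Tep+Asp and 10.61 in LG21+Asp. Its difference from GA+GA was largest in LG21+GA, at -0.26, and smallest in LG21+Asp, at -0.15. A second probe set naming Pcna gave nearly the same values, -0.25 in LG21+GA and -0.22 in GA+Asp, and whether the pair measures separate transcripts was not tested. Uhrf1, which reads newly copied DNA to keep its methylation, stood at 6.86 in GA+GA, 6.78 in LG21+GA, 6.80 in GA+Asp, 6.85 in Tep+Asp and 6.80 in LG21+Asp. Among the G1/S regulators, Chek1, the replication checkpoint kinase, stood at 6.71 in GA+GA, 6.58 in LG21+GA, 6.67 in GA+Asp, 6.63 in Tep+Asp and 6.65 in LG21+Asp. Ccne2, a cyclin of S phase entry, stood at 6.74 in GA+GA, 6.62 in LG21+GA and 6.65 on each aspirin array. LG21+GA was the lowest array for all 4 of these genes.

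The mitotic genes included the widest ranges. Mki67, the proliferation antigen that coats mitotic chromosomes, stood at 9.05 in GA+GA, 8.88 in LG21+GA, 8.67 in GA+Asp, 8.88 in Tep+Asp and 8.81 in LG21+Asp. Top2a, the topoisomerase that untangles sister chromosomes, stood at 8.46 in GA+GA, 8.16 in LG21+GA, 8.04 in GA+Asp, 8.07 in Tep+Asp and 8.08 in LG21+Asp. Both were lowest in GA+Asp, 1.299-fold below GA+GA for Mki67 and 1.34-fold for Top2a, but the other aspirin arrays came near GA+Asp for Top2a and not for Mki67. A second Top2a probe set read only 3.27 in GA+GA and did not share the pattern, at 0.33 above GA+GA in LG21+GA.

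Ccna2, cyclin A2, had the widest range of all 46 genes, at 9.12 in GA+GA, 8.85 in LG21+GA, 8.61 in GA+Asp, 8.82 in Tep+Asp and 8.77 in LG21+Asp. It was 1.42-fold lower in GA+Asp than in GA+GA. Cdk1, its kinase partner, stood at 8.88 in GA+GA, 8.66 in LG21+GA, 8.54 in GA+Asp, 8.59 in Tep+Asp and 8.62 in LG21+Asp. The order of the arrays was that of Ccna2 for GA+GA, LG21+GA and GA+Asp, with Tep+Asp and LG21+Asp between the last pair. Foxm1, a transcription factor of G2 and M genes, stood at 6.79 in GA+GA, 6.81 in LG21+GA, 6.74 in GA+Asp, 6.70 in Tep+Asp and 6.68 in LG21+Asp.

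Among mitotic kinases, Melk stood at 7.14 in GA+GA, 6.82 in GA+Asp and 6.996 on each of the other 3 arrays. Aurkb, the kinase of the chromosomal passenger complex, stood at 8.09 in GA+GA, 7.99 in LG21+GA, 7.84 in GA+Asp, 7.98 in Tep+Asp and 7.98 in LG21+Asp. For both, GA+Asp alone lay well below the other treated arrays. The kinetochore motor Cenpe went another way, at 6.92 in GA+GA, 6.64 in LG21+GA and 6.70 on each aspirin array. Nuf2, of the NDC80 complex that binds microtubules, stood at 6.82 in GA+GA, 6.62 in GA+Asp and 6.66 on the other 3 arrays.

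Spindle and cytokinesis genes held the remaining wide ranges. Nusap1, which bundles spindle microtubules, stood at 7.84 in GA+GA, 7.67 in LG21+GA, 7.40 in GA+Asp, 7.52 in Tep+Asp and 7.56 in LG21+Asp. All 3 aspirin arrays lay below both arrays without aspirin. Prc1, which crosslinks the central spindle, stood at 7.35 in GA+GA, 7.23 in LG21+GA, 6.93 in GA+Asp, 7.23 in Tep+Asp and 7.27 in LG21+Asp. Here only GA+Asp stood apart from the other treated arrays. Ect2, the exchange factor that starts the cleavage furrow, stood at 8.45 in GA+GA, 8.26 in LG21+GA, 8.23 in GA+Asp, 8.30 in Tep+Asp and 8.06 in LG21+Asp. It was 1.32-fold lower in LG21+Asp than in GA+GA and 0.18 below GA+Asp. Anln, a scaffold of the contractile ring, stood at 7.70 in GA+GA, 7.62 in LG21+GA, 7.59 in GA+Asp, 7.62 in Tep+Asp and 7.58 in LG21+Asp.

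Aspirin alone, GA+Asp against GA+GA, gave lower values for 16 of 18 S phase genes and 28 of 28 mitotic ones, against 31.4% of all genes. The median difference was -0.10 for S phase genes and -0.18 for mitotic ones, and over all genes it was 0.00, as in every comparison below. At least 1.2-fold lower were 1 S phase gene, Rrm2, and 7 mitotic ones (Mki67, Top2a, Ccna2, Cdk1, Melk, Nusap1 and Prc1), where 1.98% of all genes were that far down. None was that far up, where 0.933% of all genes were. By role the medians ran from -0.40 for the chromosome structure pair and -0.26 for the cyclin and CDK genes to -0.12 for spindle genes and -0.06 for G1/S regulators. In the same comparison the hepatocyte list had a median difference of -3.08 and the skeletal muscle list of 0.17, and their part was not tested.

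The Lactobacillus strain alone, LG21+GA against GA+GA, gave lower values for 18 of 18 S phase genes and 25 of 28 mitotic ones, against 29.8% of all genes. The median difference was -0.11 for S phase genes and -0.09 for mitotic ones. At least 1.2-fold lower were Mcm4 among S phase genes and Top2a, Ccna2 and Cenpe among mitotic ones, where 1.38% of all genes were that far down. The S phase median was thus close to that of aspirin alone, in a comparison where the hepatocyte list had a median difference of -0.67.

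Teprenone before aspirin, Tep+Asp against GA+GA, gave lower values for 17 of 18 S phase and 27 of 28 mitotic genes, against 30.6% of all genes. The medians were -0.13 and -0.10. Past 1.2-fold were 0 S phase genes and 4 mitotic ones, Top2a, Ccna2, Cdk1 and Nusap1, against 1.77% of all genes. The hepatocyte list had a median difference of -2.40, the suprabasal squamous list of 0.59, the basal squamous list of 0.04, and the endothelium and fibroblast list of 0.18. The strain before aspirin, LG21+Asp against GA+GA, gave lower values for 16 of 18 S phase and 28 of 28 mitotic genes, against 29.8% of all genes, with medians of -0.08 and -0.13. Past 1.2-fold were 0 S phase genes and 4 mitotic ones, Top2a, Ccna2, Nusap1 and Ect2, against 2.21% of all genes. The hepatocyte list had a median difference of -1.44, and the suprabasal squamous list of -1.48. All 4 of these comparisons use the GA+GA array, so the readings of that array enter all of them, and they are not separate evidence of one another.

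**Figure D4:**
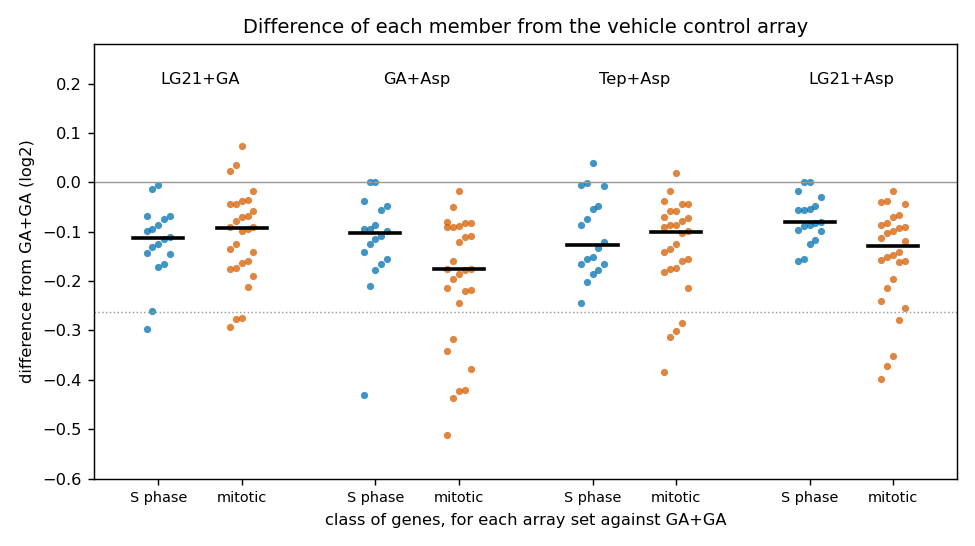
Difference of each gene from GA+GA (log2, vertical axis) for the 18 S phase and 28 mitotic genes on each of the other 4 arrays, 1 point per gene, with the median as a bar and 1.2-fold lower as the dotted line. Most points lie below 0, and the mitotic median is lowest in GA+Asp, at -0.18. All 4 panels share the GA+GA array.

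Most clock genes read lowest in GA+GA. The 16 measured circadian clock genes had a median level of 8.16 in GA+GA, 8.25 in LG21+GA, 8.42 in GA+Asp, 8.38 in Tep+Asp and 8.32 in LG21+Asp. GA+GA was strictly the lowest array for 11 of them, against 20.6% of all genes. That median pools genes that went both ways. In GA+Asp against GA+GA, 13 were above 0 and 3 below, from -0.25 to 0.59. Division in gut epithelium is known to vary with the time of day. The hour of day of dosing and collection is not in the labels, and the part of the clock in the differences from GA+GA was not tested.

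Comparisons that leave GA+GA out were smaller. Set against LG21+GA in place of GA+GA, a baseline added after seeing the data, GA+Asp had a median difference of 0.00 over S phase genes and -0.08 over mitotic ones. At least 1.2-fold lower were 1 S phase and 2 mitotic genes, against 1.83% of all genes. Tep+Asp against LG21+GA gave medians of 0.01 and 0.00, and 0 genes of either class were 1.2-fold lower, against 1.49% of all genes. Among the 4 treated arrays alone, also ranked after seeing the data, LG21+Asp was strictly highest for 8 of 18 S phase genes (44.4%) and 2 of 28 mitotic ones (7.14%), against 23.1% of all genes. LG21+GA was strictly lowest for 9 S phase genes and 1 mitotic gene (3.57%), against 16.8% of all genes. Its leads were below 0.1 except for Mcm4. GA+Asp was strictly lowest for 16 mitotic genes (57.1%) and 4 S phase ones (22.2%), against 19.8% of all genes. The hepatocyte list was also lowest in GA+Asp and highest in LG21+GA among these 4 arrays. The skeletal muscle list was highest in GA+Asp, with a median difference of -0.17 both in LG21+Asp and in Tep+Asp against GA+Asp. The part of either list in the mitotic order was not tested.

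**Figure D5:**
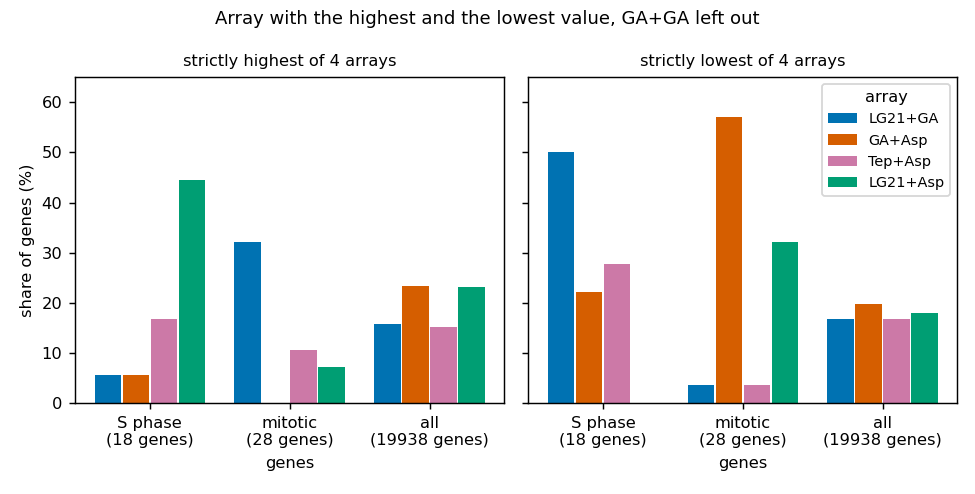
Share of genes (%, vertical axis, from 0) for which each of the 4 treated arrays was strictly the highest (left) or strictly the lowest (right), for 18 S phase genes, 28 mitotic genes and all 19938 genes. LG21+GA is most often lowest for S phase genes (9 of 18) and GA+Asp for mitotic genes (16 of 28).

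The pretreatments were compared on aspirin. LG21+Asp against GA+Asp gave a median difference of 0.02 for S phase genes and 0.04 for mitotic ones. Above 0 were 11 of 18 and 16 of 28, against 38.6% of all genes. Rrm2 and Prc1 were at least 1.2-fold higher with the strain, where 2.09% of all genes were. Teprenone against vehicle on aspirin, Tep+Asp against GA+Asp, gave medians of 0.00 and 0.05, with 6 of 18 and 22 of 28 genes above 0 against 34.6% of all genes. The same pair, Rrm2 and Prc1, was past 1.2-fold, against 1.52% of all genes, but these comparisons share the GA+Asp array. LG21+Asp against Tep+Asp gave medians of 0.02 and 0.00 and 0 genes past 1.2-fold either way, where 1.16% of all genes were that far lower and 1.33% higher. With 1 array each, these values do not show that the pretreatments act alike. In LG21+Asp against GA+Asp the suprabasal squamous list had a median difference of -1.25 and the hepatocyte list of 1.65. In Tep+Asp against GA+Asp they had 0.79 and 0.63, and in LG21+Asp against Tep+Asp -2.13 and 0.96. Their part was not tested.

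Aspirin after the strain, LG21+Asp against LG21+GA, used neither GA+GA nor GA+Asp. The S phase genes had a median difference of 0.02, with 15 of 18 above 0, against 39.2% of all genes. Over mitotic genes the median was -0.03, and 19 of 28 were below 0, against 33.6% of all genes. None was past 1.2-fold, where 1.66% of all genes were that far lower and 0.662% higher. Of the 9 Mcm, Rrm and Pcna genes, the median was 0.06. In the same comparison the suprabasal squamous list had a median difference of -1.50 and the hepatocyte list of -0.76. The part of these lists was not tested. The difference between both aspirin effects, the LG21 by aspirin interaction, had a median of 0.12 over S phase genes, 0.16 over mitotic ones and 0.21 over the Mcm, Rrm and Pcna genes. It was at least 1.2-fold up for 3 S phase genes (Mcm4, Rrm2 and Pcna) and 8 mitotic ones (Mki67, Top2a, Ccna2, Cdk1, Melk, Cenpe, Nusap1 and Prc1), against 3.37% of all genes. The interaction counts GA+GA with a positive sign, so it shares that array's high readings, and 4 arrays leave no residual to test it.

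The 1 test that was run set the 3 aspirin arrays against the 2 without aspirin, across pretreatments. The 2 arrays with the strain were not tested against the 3 without it. limma called 0 of 19938 genes (0.0%) at an adjusted p under 0.05, and 260 lower (1.3%) and 317 higher (1.59%) at an unadjusted p under 0.05. No measured cell cycle gene passed, with an adjusted p of 0.832 for the lowest. At an unadjusted p under 0.05 were 0 S phase genes and 5 mitotic ones, all lower with aspirin: Foxm1, Kif23, Nusap1, Ccnb2 and Kif20a. The largest of these differences was in Nusap1, with means of 7.49 with aspirin and 7.75 without, a difference of -0.26 (SE 0.08, limma unadjusted p = 0.0342, adjusted p = 0.832). The median difference was -0.09 over mitotic genes, all 28 below 0, and -0.03 over S phase genes, 15 of 18 below 0. All 3 aspirin arrays lay below both others for 9 mitotic genes and 1 S phase gene, Rrm1, as for 3.45% of all genes. Without LG21+GA, limma called 737 genes and 5 of the set (Ccne2, Cenpe, Mcm3, Mcm4 and Top2a), and without GA+GA it called 483 genes and 1 of the set, Cenpe, then higher with aspirin by 0.06. In those fits the lone array without aspirin was assumed to vary like the aspirin arrays, which alone gave the spread. Of the called genes, 512 of 737 (69.5%) and 371 of 483 (76.8%) had exactly the same value on all 3 aspirin arrays, as did 14.2% of all genes. Ccne2, Cenpe and Mcm3 were among them, so their spread within the aspirin arrays was 0. The origin of the ties is not known, and nothing is drawn from these calls.

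Other genes of the cycle, from lists beyond the 47, were read the same way for aspirin alone against vehicle. Of 48 further mitosis genes, 39 were below 0 (median -0.12) and 7 at least 1.2-fold lower, against 31.4% and 1.98% of all genes. Smc2, of condensin, stood at 7.32 in GA+GA, 7.05 in LG21+GA, 6.96 in GA+Asp, 7.05 in Tep+Asp and 7.05 in LG21+Asp. Mastl, a kinase that keeps mitotic phosphatase off, stood at 6.36 in GA+GA, 6.19 in LG21+GA, 6.0005 in GA+Asp, 6.19 in Tep+Asp and 6.13 in LG21+Asp. Both were highest in GA+GA and lowest in GA+Asp, but they were named for their wide ranges on these same arrays. Over the 48 genes, GA+GA was strictly highest for 32, against 11.7% of all genes. GA+Asp was strictly lowest for 21, against 18.0% of all genes. Of 37 measured replication and repair genes, 25 were below 0 (median -0.06) and 1 was 1.2-fold lower. Prim1, the primase subunit, stood at 7.44 in GA+GA, 7.19 in LG21+GA, 7.19 in GA+Asp, 7.10 in Tep+Asp and 7.15 in LG21+Asp. Dscc1, a clamp loader subunit, stood at 4.86 in GA+GA, 4.93 in LG21+GA, 4.93 in GA+Asp, 4.93 in Tep+Asp and 5.15 in LG21+Asp, and so was highest with the strain before aspirin.

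G1 regulators and inhibitors had medians near 0 in the same comparison. Over the 16 G1 cyclin, CDK, E2F and MYC genes the median was 0.00, and 8 were below 0. Ccnd1, cyclin D1, stood at 9.76 in GA+GA, 9.61 in LG21+GA, 9.64 in GA+Asp, 9.64 in Tep+Asp and 9.62 in LG21+Asp. Ccnd2, cyclin D2, went the other way, at 10.40 in GA+GA, 10.43 in LG21+GA, 10.67 in GA+Asp, 10.57 in Tep+Asp and 10.52 in LG21+Asp. Mycn stood at 6.98 in GA+GA, 6.98 in LG21+GA, 6.90 in GA+Asp, 6.92 in Tep+Asp and 7.16 in LG21+Asp. Over the 17 measured inhibitor and quiescence genes the median was 0.01, and 4 were below 0 and 10 above. Wee1, which holds CDK1 inactive, stood at 10.12 in GA+GA, 10.22 in LG21+GA, 10.33 in GA+Asp, 10.37 in Tep+Asp and 10.26 in LG21+Asp, and is itself known as a clock-controlled gene. Cdkn2b, an inhibitor of CDK4 and CDK6, stood at 9.46 in GA+GA, 9.28 in LG21+GA, 9.55 in GA+Asp, 9.54 in Tep+Asp and 9.52 in LG21+Asp. limma called 0 genes of these 4 lists at an adjusted p under 0.05 for aspirin arrays against the others.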

How the data were processed

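Total RNA from gut of 5 groups of mice was hybridised to Affymetrix Mouse Gene 1.0 ST arrays, 1 per group. The deposited log2 values are RMA expression values from Expression Console, per the labels, whereas the series' design text names the Exon Array Computational Tool; RMA corrects background, normalizes between arrays and summarises each probe set. The log2 scale was taken from the values, which ran from 1.32 to 13.87. The sources used here give no software version and no build, and no detection calls were used.

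Of 35557 probe sets, 21789 named 1 gene in the platform annotation, 1621 several and 12147 none, giving 19938 genes. Differences of log2 values were counted at 1.2-fold. Aspirin arrays were tested against the others with limma 3.58.1 in R 4.3.3 (lmFit, eBayes with trend, Benjamini-Hochberg over all genes). A check on simulated data planted differences of a doubling, in values without ties. It does not cover differences as small as those of the cell cycle genes. Other steps used Python 3.11.15, pandas 2.3.3 and numpy 2.4.6. The number of arrays limits the precision, and p-values measure the spread between these arrays, pretreatment included.

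Values on every array are given for the 2 genes of widest range in each role group, for Mki67, Top2a, Pcna, Mcm2 and Cdk1, for 2 genes of each further pathway list and for Ccnd1; Foxm1 was added after its values were seen. Cdkn1a, like Ccnb1, had no probe set of its own. The genes and lists were chosen with earlier results of these data known. Promoters came from RefSeq (GRCm38.p6) by symbol; 9 genes had none and 4 had several, of which the first was used. Alternatives were other folds, a filter at the median level of 7.41, the mean of probe sets, cyclic loess, a margin of 0.1 in ranks, limma without trend or with the pretreatment as a block, leaving out each array, and a shorter promoter window.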

Additional observations from a re-analysis of the deposited data

Results flagged for a closer look

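In 4 flagged results the aspirin difference had opposite signs after vehicle (GA+Asp minus GA+GA) and after the strain (LG21+Asp minus LG21+GA). Single genes were flagged only where both differences were at least 0.1 in size. Other genes also had opposite signs with a smaller difference on a side, such as Mcm5 (-0.16 and 0.06) and Prc1 (-0.42 and 0.04). The median over the 18 S phase genes was -0.10 after vehicle and 0.025 after the strain. Mcm4 differed by -0.18 after vehicle and by 0.14 after the strain, Rrm2 by -0.43 and 0.14, and Pcna by -0.21 and 0.11. Each of the 4 groups behind these values is 1 array, so the difference between the effects was not tested. For Mcm4 and Pcna, LG21+GA was the lowest of the 5 arrays, and for Rrm2 it was GA+Asp.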

How the results depend on the processing

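Over the planned and added alternatives, 198 values of the main comparisons moved by less than 0.05 (medians) or 1.5 times (counts), 54 moved by more and 2 changed sign. Of the other values, 293 stayed within that range, 12 moved and 1 changed sign. These were values of single genes and the counts of genes lowest in LG21+GA, Tep+Asp and LG21+Asp. The sign change was Top2a in LG21+GA against GA+GA, which was 0.017 with the mean of its probe sets. Cyclic loess moved no value of the main comparisons by that much. Changes of sign were counted only where the main value was at least 0.05 in size, so those of smaller values are not among them.

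Counts of genes past the fold depended on the fold. The shares of all genes past 1.1-fold and 1.3-fold were not counted, so the counts here say nothing of an excess. At 1.1-fold, S phase and mitotic genes lower than GA+GA numbered 6 and 17 with GA+Asp, 6 and 10 with LG21+GA, 8 and 11 with Tep+Asp, and 2 and 14 with LG21+Asp. Mitotic genes numbered 5 higher in LG21+Asp and 5 in Tep+Asp than in GA+Asp, and 2 lower in LG21+Asp than in Tep+Asp and 2 than in LG21+GA. The interaction had 7 S phase and 15 mitotic genes up. At 1.3-fold, mitotic genes lower than GA+GA numbered 4 with GA+Asp, 0 with LG21+GA, 1 with Tep+Asp and 1 with LG21+Asp, S phase genes lower in LG21+GA 0, and the interaction had 1 and 2. No mitotic gene was 1.3-fold higher in LG21+Asp or Tep+Asp than in GA+Asp (0 and 0), nor an S phase gene in Tep+Asp (0).

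Among genes above the median level, the mitotic median in Tep+Asp against GA+GA was -0.15, the interaction's S phase median 0.21 and its mitotic count 5, and 0 mitotic genes were higher in LG21+Asp or in Tep+Asp than in GA+Asp. That interaction count was of 15 genes, against 1.33% of all genes above the median level. GA+GA was then highest for 9 of 10 S phase and 13 of 15 mitotic genes, against 11.8% of all genes above that level. GA+Asp was lowest for 2 of 10 and 9 of 15, against 8.69%. With a margin of 0.1, GA+GA was highest for 4 and 11 and GA+Asp lowest for 1 and 9. At that margin LG21+GA was lowest for Mcm4 alone among S phase genes, and LG21+Asp for Ect2 alone among mitotic ones. The shares of all genes at that margin were not counted. With LG21+GA as the baseline, chosen after seeing the data, the S phase median was 0.0028 in GA+Asp and 0.015 in Tep+Asp, both above 0. The mitotic median was then -0.079 in GA+Asp and 0.00 in Tep+Asp, with 2 and 0 mitotic genes 1.2-fold lower.

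For aspirin arrays against the others, limma with no trend and with the pretreatment block called 0 genes. Above the median level, 3 mitotic genes were lower at an unadjusted p under 0.05. Leaving out each array in turn gave from 0 to 737 genes and from 0 to 5 genes of the set at an adjusted p under 0.05, and most of the called genes were tied on all 3 aspirin arrays (69.5% without LG21+GA and 76.8% without GA+GA). At an unadjusted p under 0.05 the counts of lower genes also varied with the array left out. The shares of all genes at that threshold were not counted for these alternatives. The S phase median ran from -0.11 without LG21+GA to 0.017 without GA+GA, and the mitotic one from -0.13 without LG21+GA to -0.042 without GA+GA; the cause was not tested. Without GA+Asp, Tep+Asp or LG21+Asp, 1 mitotic gene was lower at a limma unadjusted p under 0.05. The labels carry no replicate numbers. The pretreatment block pairs GA+GA with GA+Asp and LG21+GA with LG21+Asp, and no other pairing was fitted. Ties in the values and the single array per group limit every count.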
